A study of Homo sapiens with 3 samples.

Results

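The 2 lentiviral short hairpin RNAs (shRNAs) against UCP2 that were sequenced in this study were set against each other: the library labelled shUCP2#3 against the library labelled shUCP2#2, over the 14155 genes of 61806 in the table that had at least 20 counts in the sum of both. RNA sequencing had been carried out on 3 libraries, 1 per group, of KG1, an established cell line that the labels give as human acute myeloid leukemia cells. All cells had received a lentivirus, carrying hairpin 3 or hairpin 2 in the knockdown libraries and a vector control, which the methods give as a scrambled shRNA, in the control library, and were sorted as positive, sub-cultured and harvested. The control library was used only to say which hairpin library departed from it. UCP2, uncoupling protein 2, sits in the inner membrane of mitochondria and dissipates part of the proton gradient. The comparison asks how far cells given different hairpins against the same transcript were alike.

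Each library was 1 sample, so no difference here has a replicate check and no p-value is given. Folds are ratios of CPM (counts scaled in the usual way to the library's total over all genes), and the range after a fold is an exact 95% interval that covers counting error alone, not the variation between cultures. The libraries held 17562153 counts (labelled shUCP2#3), 16475165 counts (labelled shUCP2#2) and 18375090 counts (control). A gene with no count could therefore have reached 0.171 CPM in the library labelled shUCP2#3, 0.182 CPM in that labelled shUCP2#2 and 0.163 CPM in the control, which is 3 counts each. A fold against a count of 0 was computed against these 3 counts and is a lower bound. According to the methods, UCP2 knockdown clones were identified by immunoblotting, while the labels do not say whether a library came from a clone or from a sorted pool, and the hairpin number, the culture and the library cannot be told apart.

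The targeted transcript was examined first. UCP2 (ENSG00000175567, GRCh38 chromosome 11, 73974672 to 73982843, minus strand) had 649 counts in the library labelled shUCP2#3, 608 in that labelled shUCP2#2 and 651 in the control. The levels were 37.0 CPM, 36.9 CPM and 35.4 CPM in the same order, and the ratio of the hairpin libraries was 1.001 (95% interval 0.895 to 1.12). The UCP2 transcript was thus lower than the control in neither hairpin library. For KG1 cells the paper reports, from quantitative PCR and immunoblotting, that both hairpins significantly abolished UCP2 at the transcript and protein level. Such a drop in transcript was not seen in these counts, and the reason was not tested. Directions below therefore follow the labels, since no loss of UCP2 RNA was measured here. The related carrier gene SLC25A14 had 101, 59 and 193 counts in the libraries labelled shUCP2#3, shUCP2#2 and control.

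The labelled cell type was checked against marker genes. Genes of red cell precursors were abundant and close between the hairpins, with HBG2, a fetal globin, at 16496, 15211 and 24738 counts and the transcription factor GATA1 at 2843, 2874 and 3777 counts in the libraries labelled shUCP2#3, shUCP2#2 and control. Of 22 erythroid markers past the count minimum, none differed by 2-fold between the hairpin libraries, and the summed level was 4451, 4344 and 5398 CPM. CD34, the surface antigen by which progenitor-like leukemia lines such as KG1 are usually known, had 0 counts in the library labelled shUCP2#3, 10 in that labelled shUCP2#2 and 0 in the control. The summed level of 10 MHC class II and dendritic cell markers was 1.14, 0.850 and 1.03 CPM, none of them past the minimum. HLA-DRA, an MHC class II chain, and MPO, the myeloperoxidase of granulocyte precursors, had 0 counts in all libraries. These values go against what is usual for KG1, which is known as a CD34-positive line that carries MHC class II, so KG1 is used here as the name the labels give and not as an identity that the markers bear out.

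Most genes differed by less than 2-fold between the hairpin libraries. The median log2 ratio of shUCP2#3 to shUCP2#2 was 0.01 over the 14155 genes, and the quartiles were -0.17 and 0.17. In all, 414 genes (2.92% of those compared) were at least 2-fold higher in the library labelled shUCP2#3 and 632 (4.46%) at least 2-fold lower. With a counting interval that also left out a ratio of 1, 356 genes (2.52%) were higher and 566 (4.0%) lower. Without the 2-fold limit, that interval left out 1 for 5231 genes (37.0%). These shares are the background against which the gene groups below are to be read.

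The differences sat among weakly counted genes. The standard deviation of the log2 ratios was 1.35 over the 1909 genes with 20 to 49 counts in the sum, 0.84 over the 2516 genes with 50 to under 200, 0.42 over the 4012 genes with 200 to under 1000 and 0.15 over the 5718 genes with 1000 or more. Genes past 2-fold numbered 276 higher and 442 lower in the lowest class, against 0 higher and 3 lower in the highest. A 2-fold ratio, a log2 ratio of 1, is thus within the standard deviation of the lowest class and far outside that of the highest.

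**Figure D1:**
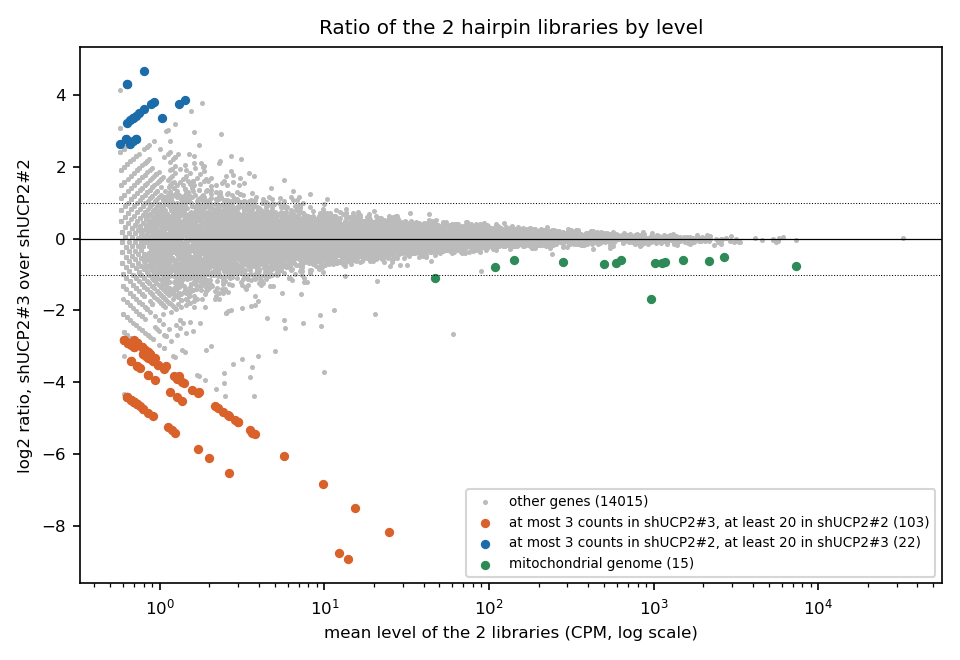
Log2 ratio of the library labelled shUCP2#3 over that labelled shUCP2#2 (vertical axis) against the mean CPM of both (horizontal axis, log scale), 1 point per gene, 14155 genes, with dotted lines at 2-fold. The 103 orange genes have at most 3 counts in shUCP2#3 and at least 20 in shUCP2#2 and run far below the other genes, the 22 blue genes are the reverse case, and the 15 green mitochondrial genes all lie below 0.

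The widest ratios included many genes of the extracellular matrix, beside genes of other kinds. Collagens I and III form the fibrils of connective tissue, type IV collagens and laminins form basement membranes, and small proteoglycans such as decorin and lumican bind the fibrils and regulate their width. In adult tissue they are made mainly by fibroblasts and related stromal cells, and blood cell precursors make few of them. Of the 19 collagen genes past the minimum, 13 were at least 2-fold lower in the library labelled shUCP2#3 and 1 was higher, and the sums of their counts were 1351, 3978 and 1516 in the libraries labelled shUCP2#3, shUCP2#2 and control. Of the 13, 6 had at most 3 counts in the library labelled shUCP2#3. These passed the minimum through the library labelled shUCP2#2 alone, which fixed their direction. COL4A1, COL6A1 and COL7A1, with 5, 10 and 8 counts in the library labelled shUCP2#3, also passed only through their 76, 111 and 45 counts in the other. COL26A1 (9 and 18 counts) had a counting interval that included 1 (0.909 to 5.39).

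The fibril-forming collagens stood out most. COL1A1 (chromosome 17, 50184101 to 50201632), the alpha 1 chain of collagen I, had 0 counts in the library labelled shUCP2#3, 507 in that labelled shUCP2#2 and 0 in the control, and was at least 180.15-fold lower in the library labelled shUCP2#3. COL1A2 (chromosome 7, 94394895 to 94431227), the alpha 2 chain, had 3, 806 and 2 counts in the same order, a ratio of 286 (97.6 to 1392). COL3A1 (chromosome 2, 188974373 to 189012746), the chain of collagen III, had 1, 457 and 3 counts, 487-fold lower (87.0 to 19283). In each case the library labelled shUCP2#3 and the control were both at or near 0, and the counts lay in the library labelled shUCP2#2 alone.

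The fibril-binding and matrix-remodeling genes followed the same pattern. Decorin (DCN) had 1, 403 and 5 counts in the libraries labelled shUCP2#3, shUCP2#2 and control, 429.6-fold lower in the library labelled shUCP2#3 (76.7 to 17009). Its neighbor on chromosome 12, lumican (LUM), had 0, 187 and 0 counts and was at least 66.4-fold lower. MMP2, a gelatinase that cleaves denatured collagen, had 0, 323 and 0 counts (at least 115-fold lower), and its inhibitor TIMP2 had 0, 120 and 1 (at least 42.6-fold lower). An enzyme and its inhibitor were thus found together in 1 library and were near 0 in both others.

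Further genes of the 15 with the firmest lower ratio (the counting bound nearest to 1 lying farthest from 1) had 98 counts or fewer in the library labelled shUCP2#2. The terminal complement component C7 and the alcohol dehydrogenase ADH1B each had 0, 98 and 0 counts, and the actin-binding caldesmon gene CALD1 had 0, 94 and 0. The testican proteoglycan gene SPOCK1 had 0, 87 and 0 counts, the steroid- and hydrocarbon-oxidizing CYP1B1 0, 85 and 0, the matrix protein gene TGFBI 0, 80 and 2, the secreted protease gene HTRA1 0, 74 and 0, and the calcification inhibitor MGP 0, 71 and 0. Bounds of these 8 genes ran from at least 25.2-fold to at least 34.8-fold lower in the library labelled shUCP2#3. All 15 had at most 3 counts in the library labelled shUCP2#3 and at most 5 in the control.

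**Figure D2:**
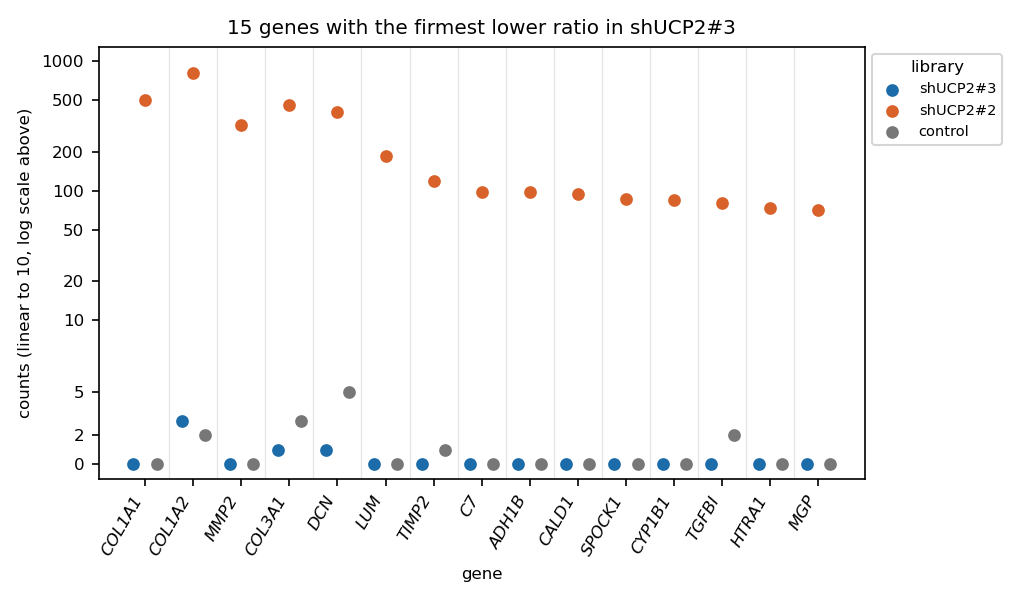
Counts (vertical axis, linear to 10 and logarithmic above) of the 15 genes with the firmest lower ratio in the library labelled shUCP2#3, 1 point per library. The points of shUCP2#2 lie between 71 and 806 counts, while those of shUCP2#3 lie between 0 and 3 and those of the control between 0 and 5.

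In all, 103 genes (0.728% of those compared) had at most 3 counts in the library labelled shUCP2#3 and at least 20 in that labelled shUCP2#2. Together they held 118 counts, or 0.000672% of the library, in that labelled shUCP2#3, 6200 counts (0.0376%) in that labelled shUCP2#2 and 288 counts (0.00157%) in the control. The control had at most 3 counts for 76 of them, 0 for 42, and 22 at the highest. Protein-coding genes made up 86 of the 103. Of the 88 that the deposited table annotates with a cellular component, 18 (20.5%) were annotated to collagen or extracellular matrix, against 101 of 11679 (0.865%) of all annotated genes past the minimum. Since collagens were known to differ when these terms were chosen, the last share is a description.

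The set was not limited to collagen-producing functions. LAMA2, a laminin chain of muscle basement membrane, had 3, 122 and 3 counts in the libraries labelled shUCP2#3, shUCP2#2 and control, and COL6A2, a chain of the microfibrillar collagen VI, had 3, 113 and 1. Among genes chosen after their values were seen, the stromal growth factor receptor gene PDGFRA had 0, 45 and 0 counts, the fibroblast activation protease FAP had 0, 32 and 0, the mesenchymal homeobox gene PRRX1 had 0, 28 and 0, and the Hippo pathway coactivator YAP1 had 1, 25 and 0. PDK4, a kinase that inhibits pyruvate dehydrogenase, had 1, 36 and 0 counts. A receptor, a transcription factor, a coactivator and a metabolic enzyme were thus seen beside the secreted proteins, each with fewer than 50 counts.

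Promoters are shown for the 4 genes of this set with the most counts in the library labelled shUCP2#2 among those that have an entry in the RefSeq promoter table (GRCh38.p14). Members with more counts there, such as COL1A2, COL1A1 and COL3A1, had no entry and are not shown. The rule chose the set by its low counts in 1 library and higher counts in the other, so the common direction is no finding. Of the 94 gene symbols in the set, 63 had an entry. Each line gives the 100 bases before the first listed start of the gene, 5′ to 3′ on the gene's strand, with any TATAAA, on either strand, in capitals.
LAMA2 (chr6:128883038-128883137, plus strand): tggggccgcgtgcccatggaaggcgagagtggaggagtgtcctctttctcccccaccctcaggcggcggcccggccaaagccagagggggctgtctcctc
COL6A2 (chr21:46098012-46098111, plus strand): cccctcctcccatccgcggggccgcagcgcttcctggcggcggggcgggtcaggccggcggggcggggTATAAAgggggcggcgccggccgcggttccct
ADH1B (chr4:99321402-99321501, minus strand): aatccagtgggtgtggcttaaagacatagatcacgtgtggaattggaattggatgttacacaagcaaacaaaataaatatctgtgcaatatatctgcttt
C7 (chr5:40909397-40909496, plus strand): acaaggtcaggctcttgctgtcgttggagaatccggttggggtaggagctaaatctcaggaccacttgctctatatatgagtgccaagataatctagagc
The COL6A2 stretch held the letters TATAAA 32 bases before the start, and the other stretches held none. Over the 250 bases before the start, 10 of the 63 promoters of the set (15.9%) held TATAAA on either strand, against 537 of 10021 promoters (5.36%) of genes past the minimum and 3040 of 27305 (11.1%) in the whole table. These are matches of letters and not binding sites, and nothing was measured at these promoters.

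The list of 26 fibroblast and matrix markers was chosen with the collagen difference known, so its direction is a description. Of its 21 genes past the minimum, 18 were at least 2-fold lower in the library labelled shUCP2#3 and none was higher, with a median log2 ratio of -3.83 against 0.01 over all genes. All 21 lay below 0. Of the 21, 10 belong to the near-0 set and passed the minimum through the library labelled shUCP2#2 alone, and of the 11 others 8 were at least 2-fold lower. Some of these 8 also needed the library labelled shUCP2#2 to pass, such as COL4A1 (5 and 76 counts in shUCP2#3 and shUCP2#2) and COL6A1 (10 and 111). The count of 8 is therefore not free of the filter either. In the library labelled shUCP2#3, 11 of the 26 markers had no count, as did 11 in the control and 0 in the library labelled shUCP2#2. Markers with at least 10 counts numbered 9, 24 and 8 in the libraries labelled shUCP2#3, shUCP2#2 and control, and the summed level was 239.7, 552 and 290.2 CPM. Whether a group of stromal cells or transcripts of the labelled cells gave these counts was not tested, and in bulk RNA more cells of a type and more RNA per cell cannot be told apart.

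Some matrix genes were counted in all libraries and differed less. FN1, encoding fibronectin, had 3642, 4583 and 4903 counts in the libraries labelled shUCP2#3, shUCP2#2 and control. The whole list had 4210, 9093 and 5333 counts, so FN1 made up most of them in each library, though only barely in that labelled shUCP2#2. COL6A3, the third chain of collagen VI, had 227, 478 and 153 counts (2.24-fold lower in the library labelled shUCP2#3, 1.91 to 2.64), and SPARC, a collagen-binding glycoprotein, had 81, 301 and 74 (3.96-fold lower, 3.09 to 5.13). The laminin gene LAMC1 had 43, 205 and 35 counts (5.08-fold lower, 3.64 to 7.23) and CTSK, a collagen-degrading cathepsin, had 62, 253 and 37 (4.35-fold lower, 3.28 to 5.84). In CPM the library labelled shUCP2#3 lay nearer to the control than to the library labelled shUCP2#2 for all of these, though for FN1 only by little.

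The collagen family was not uniform. COL18A1, the basement membrane collagen from which endostatin is cut, had 383, 513 and 527 counts in the libraries labelled shUCP2#3, shUCP2#2 and control, COL4A5 had 230, 237 and 376, and COL15A1 had 62, 56 and 64. COL21A1, a fibril-associated collagen, went the other way with 50, 6 and 30 counts, 7.82-fold higher in the library labelled shUCP2#3 (3.35 to 22.3). The widest lower ratios belonged to chains with 11 counts or fewer in the control.

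Markers of other cell types that could have accompanied stromal cells were compared in the same way. Of 10 endothelial markers 2 passed the minimum and neither was past 2-fold, with summed levels of 38.1, 50.3 and 85.0 CPM in the libraries labelled shUCP2#3, shUCP2#2 and control. Of 15 epithelial markers 8 passed and none was past 2-fold (605, 625 and 630.04 CPM). The hepatocyte (23.9, 24.6 and 13.2 CPM), adipocyte (7.34, 9.10 and 8.05 CPM) and muscle lists (51.0, 60.3 and 69.3 CPM) had 1, 1 and 3 genes past the minimum. Of these 5 genes only MYH7, a heavy chain of slow muscle myosin, was past 2-fold, with 4, 21 and 8 counts. The part of any other cell type in the result was not tested.

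Genes higher in the library labelled shUCP2#3 formed no such group. The 15 with the firmest higher ratio included 6 antisense, divergent or long noncoding transcripts by name, and none had more than 73 counts in any library. SPNS1, a lysosomal phospholipid transporter, had 47 counts in the library labelled shUCP2#3, 3 in that labelled shUCP2#2 and 42 in the control, 14.7-fold higher in the library labelled shUCP2#3 (4.73 to 73.8). SERINC2, a serine incorporator family member, had 29, 2 and 28 counts (13.6-fold, 3.44 to 118), and GAS6-DT, transcribed divergently from the GAS6 gene, had 30, 2 and 25 (14.1-fold, 3.57 to 122). In these 3 genes the library labelled shUCP2#3 was level with the control and the library labelled shUCP2#2 was low.

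In others the control lay further below the library labelled shUCP2#3. APOBEC3A, a cytidine deaminase that edits single-stranded DNA, had 50, 4 and 15 counts in the libraries labelled shUCP2#3, shUCP2#2 and control (11.7-fold higher in the library labelled shUCP2#3, 4.30 to 44.7), although its close relatives can share reads with it. LINC01748 had 73, 9 and 31 counts (7.61-fold, 3.80 to 17.3), and AKAP6, an anchor of protein kinase A, had 35, 4 and 12 (8.21-fold, 2.94 to 31.8). DUT-AS1, antisense to the dUTPase gene, had 22, 0 and 12 counts and was at least 6.88-fold higher. The rest of the 15, namely SHF, CFHR4, COL21A1, MOCS2-DT, LRRC29, HCG25, CHP2 and BDNF-AS, had 19 to 52 counts in the library labelled shUCP2#3, 0 to 8 in that labelled shUCP2#2 and 8 to 39 in the control. In all 15 the control lay, in CPM, above the library labelled shUCP2#2 and below that labelled shUCP2#3. The 15 were ranked by the ratio of the hairpin libraries, so a control that lies between them is no finding.

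**Figure D3:**
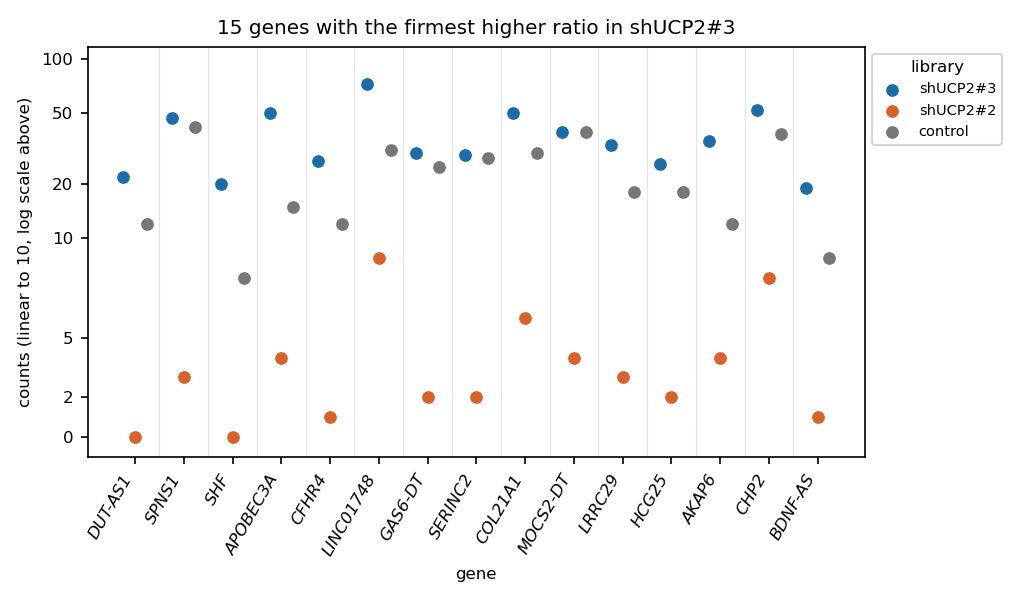
Counts (vertical axis, linear to 10 and logarithmic above) of the 15 genes with the firmest higher ratio in the library labelled shUCP2#3, 1 point per library. Points of shUCP2#3 lie between 19 and 73 counts and those of shUCP2#2 between 0 and 9. The control lies above shUCP2#2 and at or below shUCP2#3 for every gene.

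The reverse of the near-0 set was small. Only 22 genes (0.155% of those compared) had at most 3 counts in the library labelled shUCP2#2 and at least 20 in that labelled shUCP2#3, against 103 in the other direction. The highest had 47 counts in the library labelled shUCP2#3. The control had at least 10 counts for 16 of the 22 and at most 3 for 1. Only 9 of the 22 had a cellular component annotated, none of them collagen or extracellular matrix, which is too few to set against the share of 0.865% over all annotated genes. The 2 sets thus differed in the control: it was at or near 0 for most genes near 0 in the library labelled shUCP2#3, and had counts for most genes near 0 in that labelled shUCP2#2.

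To see which library departed from the control, each hairpin library was set against it at 2-fold for the genes past 2-fold between the hairpins with an interval off 1. Of the 356 genes higher in the library labelled shUCP2#3, 75 departed in that library alone, 178 in the library labelled shUCP2#2 alone, 28 in both and 75 in neither. Of the 566 lower genes, 78 departed in the library labelled shUCP2#3 alone, 278 in that labelled shUCP2#2 alone, 104 in both and 106 in neither. Departures in the library labelled shUCP2#2 alone were the most frequent class in both directions. How many of all compared genes departed from the control in each library was not counted, so these classes have no background beside them. When the counting interval against the control had also to leave out 1, the counts for the lower genes were 68, 329, 36 and 133, and for the higher genes 84, 153, 12 and 107. Of the 103 near-0 genes, 94 departed in the library labelled shUCP2#2 alone by that stricter rule. For 76 of the 103 the control also had at most 3 counts. No ratio of shUCP2#3 to the control was formed there, so these genes could depart in the library labelled shUCP2#2 only. All 3 libraries enter these classes, so the control's own scatter enters both of its ratios.

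A smaller number of genes departed in the library labelled shUCP2#3 alone, and those named here were chosen after their values were seen. GNAO1, the alpha subunit of a G protein of neurons, had 82 counts in the library labelled shUCP2#3, 24 in that labelled shUCP2#2 and 25 in the control (3.21-fold higher between hairpins, 2.01 to 5.28). HOTAIRM1, a noncoding RNA of the HOXA cluster, had 65, 20 and 29 counts (3.05-fold, 1.82 to 5.31), and HOXA3 of the same cluster had 25, 4 and 11. LINGO1, a neuronal membrane protein gene, had 52, 12 and 19 counts (4.06-fold, 2.14 to 8.37), and the histone gene H2BC6 had 55, 16 and 10 (3.22-fold, 1.82 to 6.03). For GNAO1, HOTAIRM1, LINGO1 and H2BC6 the library labelled shUCP2#2 was within 2-fold of the control. For HOXA3 it was at 0.406 of the control, so HOXA3 is in this class only by the stricter rule with the counting interval.

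Among lower genes of this class, U2AF1, the small subunit of the factor that recognizes the 3′ splice site, had 52, 266 and 204 counts in the libraries labelled shUCP2#3, shUCP2#2 and control (5.45-fold lower between hairpins, 4.04 to 7.49). It has near-identical copies in the genome with which it can share reads, so the value is uncertain. SLC25A10, the mitochondrial dicarboxylate carrier, had 47, 110 and 193 counts (2.50-fold lower, 1.76 to 3.59), and PACRGL had 80, 173 and 192 (2.31-fold lower, 1.76 to 3.04). AMDHD2, which deacetylates N-acetylglucosamine phosphate, had 32, 80 and 82 counts (2.67-fold lower, 1.75 to 4.15). In these genes the low value belonged to the library labelled shUCP2#3.

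Genes with many counts rarely differed. Of the 5718 genes with at least 1000 counts in the sum, 3 were past 2-fold, all lower in the library labelled shUCP2#3: the mitochondrial genes MT-RNR1 and MT-ATP8, and ENSG00000281181, a long noncoding RNA gene without a symbol on chromosome 21 (8437629 to 8438551). The last had 292 counts in the library labelled shUCP2#3, 1719 in that labelled shUCP2#2 and 123 in the control, 6.28-fold lower (5.54 to 7.13). Chosen after their values were seen, the reference genes GAPDH (42456, 40954 and 47318 counts; 1.03-fold lower, 1.01 to 1.04) and ACTB (18729, 17971 and 21723 counts; 1.02-fold lower, 1.002 to 1.04) differed little.

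The mitochondrial genome was a group of abundant transcripts that lay to 1 side as a whole. It encodes core proteins of the respiratory chain and of ATP synthase together with the ribosomal and transfer RNAs of the organelle, and both strands are transcribed as long precursors that are cut into single RNAs. All 15 protein and ribosomal RNA genes were lower in the library labelled shUCP2#3, by 1.42-fold to 3.19-fold, each with a counting interval off 1. Over all compared genes, in either direction and without a fold limit, that interval left out 1 for 37.0%. The median log2 ratio was -0.67, against 0.01 over all genes, and 2 of the 15 were past 2-fold. Over all 37 mitochondrial genes, the share of counts was 1.54% (exact interval 1.54 to 1.55%) in the library labelled shUCP2#3, 2.52% (2.51 to 2.52%) in that labelled shUCP2#2 and 1.94% (1.93 to 1.94%) in the control.

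The small ribosomal RNA led the group. MT-RNR1, the 12S RNA (MT, 648 to 1601), had 8068 counts in the library labelled shUCP2#3, 24138 in that labelled shUCP2#2 and 9399 in the control, 3.19-fold lower between hairpins (3.11 to 3.27). MT-RNR2, the 16S RNA of the same precursor, had 95875, 151526 and 123218 counts, 1.69-fold lower (1.67 to 1.70). The ratio of MT-RNR1 to MT-RNR2 counts was thus 0.0842, 0.159 and 0.0763 in the libraries labelled shUCP2#3, shUCP2#2 and control, with the library labelled shUCP2#2 alone at the high value. MT-RNR1 apart, no gene of the group exceeded a 2.14-fold difference.

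The messenger RNAs spread over a narrow range. MT-ATP8, an ATP synthase subunit, had 527, 1059 and 734 counts (2.14-fold lower in the library labelled shUCP2#3, 1.93 to 2.38), and MT-ND6, a complex I subunit encoded on the opposite strand to the rest, had 1389, 2262 and 1393 (1.74-fold lower, 1.62 to 1.86). MT-CYB, the cytochrome b of complex III, had 6658, 10206 and 7381 counts (1.63-fold lower, 1.58 to 1.69). At the low end, MT-CO1, the catalytic subunit of complex IV, had 38608, 51489 and 56185 counts (1.42-fold lower, 1.40 to 1.44). In CPM, the library labelled shUCP2#3 was below the control for 13 of 15 genes and the library labelled shUCP2#2 above it for 15 of 15.

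**Figure D4:**
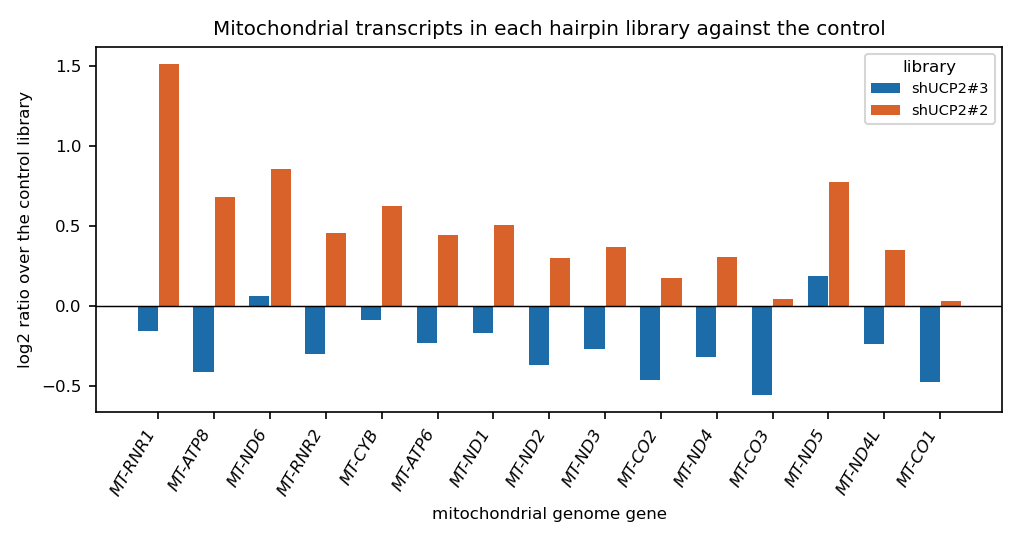
Log2 ratio over the control library (vertical axis) of 15 mitochondrial genes (horizontal axis, ordered by the ratio of the hairpin libraries), with a bar for shUCP2#3 left of the bar for shUCP2#2. All 15 orange bars lie above 0 and 13 of the 15 blue bars below it, the exceptions being MT-ND6 and MT-ND5.

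Nuclear genes of the same organelle did not follow. Of 79 nuclear genes of oxidative phosphorylation none was past 2-fold, with a median log2 ratio of -0.02 and a range of -0.39 to 0.89 whose upper end was NDUFA7, a complex I subunit (77, 39 and 99 counts in the libraries labelled shUCP2#3, shUCP2#2 and control). Of 77 mitochondrial ribosomal protein genes none was past 2-fold (median 0.02), and the median of 22 genes of the tricarboxylic acid cycle was 0.00. The shift was thus seen in the RNA made inside the organelle and in no list of nuclear genes for its proteins.

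Short structured RNAs, which act in ribosome assembly and protein export and carry no long poly(A) tail, differed as well. SNORD3A, the U3 small nucleolar RNA, had 25 counts in the library labelled shUCP2#3, 306 in that labelled shUCP2#2 and 28 in the control, 13.05-fold lower in the library labelled shUCP2#3 (8.67 to 20.5). RN7SL1, the RNA of the signal recognition particle, had 136, 543 and 56 counts (4.26-fold lower, 3.52 to 5.18), and near-identical copies can share its reads. Of the list's 28 genes, 4 passed the minimum, 3 of them at least 2-fold lower, and their sum was 231, 924 and 181 counts. SNORD17 was the exception with 58, 31 and 80 counts. Of nuclear long noncoding RNAs chosen after their values were seen, MALAT1 had 152, 296 and 120 counts (2.08-fold lower, 1.70 to 2.54), whereas NEAT1 had 3605, 3890 and 3697.

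SNORD3A, RN7SL1 and MALAT1 share with MT-RNR1 and ENSG00000281181 that the library labelled shUCP2#2 was the highest of the 3. All of them are noncoding. Without the mitochondrial and structured RNAs in the totals, the ratio by which counts of the hairpin libraries are scaled was 1.08, against 1.07 with all genes, and the largest shift of a list's median log2 ratio was 0.015.

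Genes of HLA class I presentation were split. HLA-C and HLA-B, the presenting chains, had 0, 21 and 2 counts and 0, 20 and 2 counts in the libraries labelled shUCP2#3, shUCP2#2 and control, at least 7.46-fold and at least 7.11-fold lower in the library labelled shUCP2#3, although these genes are polymorphic and can share reads. The partner chain B2M had 11825, 10329 and 12301 counts and HLA-E had 1776, 1752 and 1948, close in all libraries. TAP1, a chain of the peptide transporter, had 89, 45 and 90 counts (1.86-fold higher, 1.28 to 2.72). Of the 9 genes past the minimum, 4 were at least 2-fold lower and none higher, with a median log2 ratio of -0.31. HLA-B and HLA-C are among these 4 and passed the minimum through the library labelled shUCP2#2 alone.

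Leukemia and progenitor genes past the minimum showed no common direction. Of 9 progenitor markers past the minimum none was past 2-fold, with KIT, the stem cell factor receptor, at 350, 247 and 240 counts in the libraries labelled shUCP2#3, shUCP2#2 and control (1.33-fold higher in the library labelled shUCP2#3, 1.13 to 1.57), MECOM at 780, 588 and 482 (1.24-fold, 1.12 to 1.39) and RUNX1 at 1671, 1321 and 895 (1.19-fold, 1.10 to 1.28). GATA2 had 2669, 2444 and 2439 counts. The genes named here lay above 0, but of the 9 markers 5 lay above and 4 below. Their median log2 ratio was 0.02 and the range -0.90 to 0.41, so the widest ratio was a lower one. The intervals of KIT, MECOM and RUNX1 left out 1, but ratios of this size lay within the general scatter for KIT, and their order was that of shUCP2#3 over shUCP2#2 over control.

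Of the pathways that the study was about, the lists of core genes held none past 2-fold, while the wider PI3K-Akt annotation of the deposited table did. Catabolism of branched-chain amino acids breaks down leucine, isoleucine and valine in the mitochondrion, and of its 26 genes none was past 2-fold, with a median log2 ratio of 0.04 and a range of -0.53 to 0.61. BCAT1, the cytosolic transaminase that opens the route, had 18284, 16622 and 12476 counts in the libraries labelled shUCP2#3, shUCP2#2 and control. HIBCH of the valine branch had 867, 654 and 949 counts (1.24-fold higher, 1.12 to 1.38). Signaling by PI3K, AKT and mTOR links growth factors to protein synthesis, and of its 39 genes none was past 2-fold (median 0.06), the firmest being PIK3CG, a catalytic PI3K subunit, with 317, 193 and 283 counts (1.54-fold higher, 1.28 to 1.85). The deposited annotation draws these pathways wider, to the matrix ligands and receptors upstream. In its PI3K-Akt signaling pathway, 30 of 261 genes (11.5%) were at least 2-fold lower in the library labelled shUCP2#3 and 4 higher, against 4.46% lower over all genes. Of the 30, 19 are also annotated to ECM-receptor interaction, among them COL1A1, LAMC1 and THBS1, and the 11 others include the growth factor receptors PDGFRA and PDGFRB and the ligand PDGFB. In its mTOR signaling pathway, 7 of 114 genes (6.14%) were lower and 2 higher, none of the 7 shared with ECM-receptor interaction. In both pathways some lower genes, such as COL1A1, PDGFRA and RPS6KA2, had at most 3 counts in the library labelled shUCP2#3. They passed the minimum through the library labelled shUCP2#2 alone, which fixed their direction, so these shares are a description.

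Other lists were centered near 0 as well, with single genes outside. The medians were -0.06 over 82 cytosolic ribosomal proteins, 0.02 over 28 genes of mitosis, 0.04 over 28 of DNA replication, 0.00 over 14 heat shock proteins, -0.02 over 19 of glycolysis and -0.09 over 24 of cholesterol synthesis, with no gene past 2-fold in any of them. The RNA interference machinery, on which a hairpin depends, had a median of 0.13 over 10 genes, with AGO1 at 1403, 1051 and 1041 counts in the libraries labelled shUCP2#3, shUCP2#2 and control (1.25-fold higher, 1.16 to 1.36) and DICER1 at 686, 527 and 559 (1.22-fold, 1.09 to 1.37). Of 14 interferon response genes, IFITM3, a barrier to virus entry, was higher with 153, 64 and 106 counts (2.24-fold, 1.67 to 3.05) and IFIT3 lower with 7, 20 and 14 (3.05-fold, 1.24 to 8.52), and the median was 0.10.

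Single stress genes departed from their lists. VLDLR, a lipoprotein receptor, had 1, 29 and 2 counts (30.9-fold lower in the library labelled shUCP2#3, 5.13 to 1263) while the other 22 genes of the integrated stress response were within 2-fold (median of the list 0.01). GPX3, the secreted glutathione peroxidase, had 28, 121 and 11 counts (4.61-fold lower, 3.03 to 7.22), and the other 24 genes of peroxide defence past the minimum were within 2-fold. MT1F, a metallothionein, had 13, 37 and 8 counts (3.03-fold lower, 1.58 to 6.22), whereas MT2A had 2944, 3289 and 1992. For VLDLR the library labelled shUCP2#3 was near the control, and for GPX3 and MT1F it lay between the library labelled shUCP2#2 and the control. FOSB, an immediate-early transcription factor, had 15, 38 and 34 counts (2.70-fold lower, 1.45 to 5.28), with the library labelled shUCP2#3 the odd one out.

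**Figure D5:**
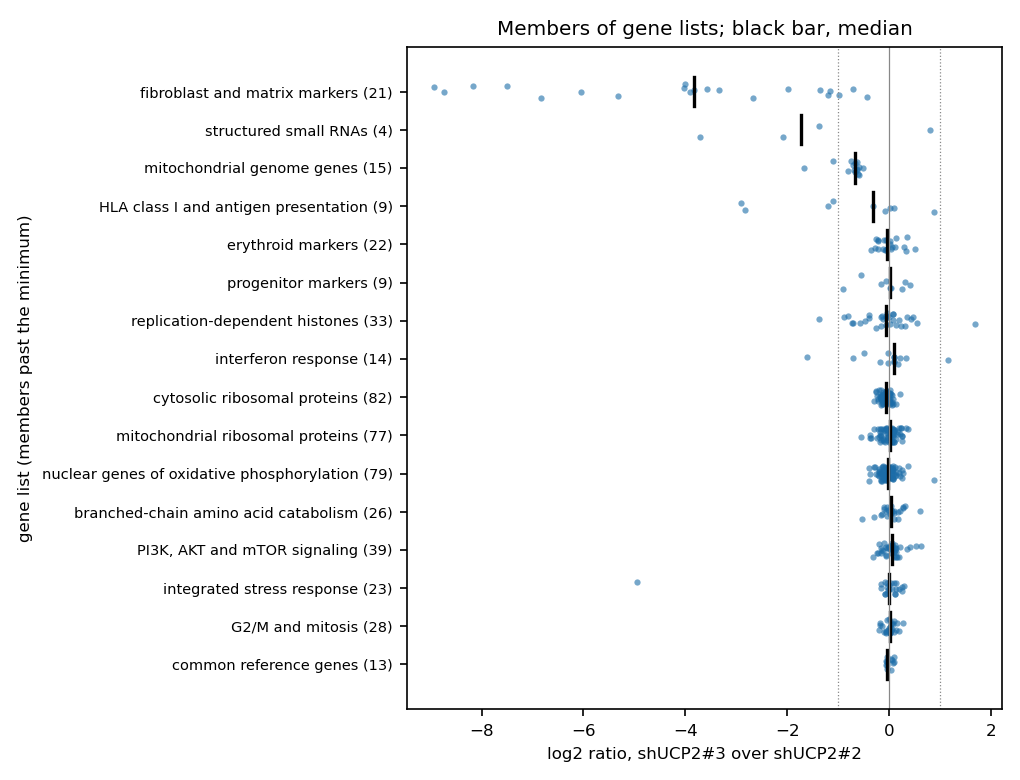
Log2 ratio of the library labelled shUCP2#3 over that labelled shUCP2#2 (horizontal axis, dotted lines at 2-fold) for the members of 16 gene lists past the count minimum, 1 point per gene, with a black bar at the list's median. The fibroblast list reaches below -8 and the mitochondrial list lies below 0 as a whole, while the other lists with 10 or more genes are centered within 0.2 of 0.

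By their medians, few pathways of the deposited annotation lay away from 0. Of the 312 pathways with at least 15 genes past the minimum, 303 had a median log2 ratio within 0.1 of 0. The lowest was ECM-receptor interaction (63 genes, median -0.21, 21 at least 2-fold lower and 0 higher), led by COL1A1, COL1A2 and LAMA2. Steroid hormone biosynthesis (20 genes, -0.16) and ovarian steroidogenesis (24 genes, -0.14) shared CYP1B1 and CYP11A1, which cleaves the side chain of cholesterol and had 39, 69 and 37 counts in the libraries labelled shUCP2#3, shUCP2#2 and control, and glycosaminoglycan degradation had a median of -0.14 over 24 genes. At the other end stood primary immunodeficiency (25 genes, 0.15), pentose and glucuronate interconversions (19 genes, 0.14), viral protein interaction with cytokine and cytokine receptor (35 genes, 0.11), RIG-I-like receptor signaling (44 genes, 0.10) and morphine addiction (47 genes, 0.10), each with at most 4 genes past 2-fold in a direction. TNFRSF13C, the BAFF receptor of B cells and a member of the primary immunodeficiency pathway, had 21, 4 and 5 counts in the libraries labelled shUCP2#3, shUCP2#2 and control (4.93-fold higher, 1.66 to 19.7).

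Shares past 2-fold set further pathways apart from the background of 4.46% lower. After ECM-receptor interaction (33.3%), the highest shares of lower genes were those of malaria (7 of 25, 28.0%), type I diabetes mellitus (6 of 23, 26.1%), allograft rejection (4 of 17, 23.5%), protein digestion and absorption (12 of 53, 22.6%), autoimmune thyroid disease (4 of 18, 22.2%), amoebiasis (13 of 62, 20.97%), graft-versus-host disease (3 of 17, 17.6%) and viral myocarditis (7 of 40, 17.5%). Protein digestion and absorption had 2 genes at least 2-fold higher, and the others named here had 0. These pathways share members: HLA-B and HLA-C were among the lower genes of type I diabetes mellitus, allograft rejection, autoimmune thyroid disease, graft-versus-host disease and viral myocarditis. Of the lower genes, 9 of 12 in protein digestion and absorption and 11 of 13 in amoebiasis are also in ECM-receptor interaction. Some of the lower genes, such as COL1A1, HLA-B and HLA-C, passed the minimum through the library labelled shUCP2#2 alone, which fixed their direction. The pathways were also picked by these shares, which are therefore given as a description.

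Position in the genome, gene type and length were examined last. Medians of 23 nuclear chromosomes ran from -0.05 (chromosome 21) to 0.07 (chromosome 18), leaving out chromosome Y, which had 1 gene past the minimum. Chromosome 21 had the highest nuclear share of genes at least 2-fold lower in the library labelled shUCP2#3, 15 of 152 (9.87%), against 4.46% overall. Among the 15 were COL6A1, COL6A2 and U2AF1, together with MIR3648-1 and genes without a symbol. MIR3648-1, ENSG00000280614, ENSG00000281181 and ENSG00000278931 lay close together, between positions 8208473 and 8880976. Chromosome 13 came next with 19 of 252 (7.54%). Of 11531 protein-coding genes 1.80% were higher and 3.11% lower by 2-fold, against 8.97% and 10.6% of 602 intergenic long noncoding RNAs and 8.03% and 10.8% of 610 antisense genes. By exonic length, genes up to the first quartile of length were 4.83% higher and 6.89% lower, and those above the last quartile 1.84% and 3.73%. Noncoding and short genes also tend to have few counts, where the scatter was widest, and length, type and count were not separated.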

How the data were processed

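RNA of 3 libraries of cells labelled KG1 was compared. The authors deposited raw read counts per gene, not normalized, and FPKM, which equals the count over exonic size and over the library total for every gene of the table. Tools in the submitters' processing notes are HISAT2 2.2.1, HTSeq 0.6.1, cutadapt 1.9.1, Cufflinks 2.2.1, SAMtools 0.1.19 and DESeq2, with the build GRCh38; annotation release and strand setting were not given in the sources used here. Overlapping and antisense genes can therefore share reads, as can near-identical copies. Of the genes, 20417 had no symbol. The labels' extraction text describes DNA although the molecule is total RNA, and the series' design text numbers the hairpins 1 and 2, so the sample titles were followed.

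Counts were scaled by library totals. A count of 0 was set to 3, and no ratio was formed where both counts were 3 or fewer. Intervals are exact conditional binomial (Clopper-Pearson) and were checked on simulated counts. Gene types came from GENCODE 29. The members and the lists were chosen with earlier results of these data known. The rule named UCP2, per direction the 15 genes with the firmest counting bound and the 10 highest of each near-0 set, up to 4 genes per list and up to 3 for each of 5 pathways per direction; other genes named, such as GATA1, HBG2, CD34, MPO, HLA-DRA, FN1, SPARC, COL6A3, LAMC1, CTSK, COL18A1, GATA2, BCAT1, B2M and HLA-E, were chosen after their values were seen. Alternatives were edgeR 4.0.16 and DESeq2 1.42.0 factors (R 4.3.3), other totals, minimums of 100 or none, 2 counts added, FPKM + 1, other near-0 and departure limits, with scripts in Python 3.11.15, SciPy 1.17.1 and matplotlib 3.10.9.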

Additional observations from a re-analysis of the deposited data

Results flagged for a closer look

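The transcripts of the mitochondrial genome moved in opposite directions in the hairpin libraries when each was set against the control. Their median log2 ratio to the control over 15 genes was -0.27 for shUCP2#3 and 0.45 for shUCP2#2. This difference between the libraries was not tested, since each is 1 sample, and both ratios share the control library.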

How the results depend on the processing

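The count of genes past 2-fold depended on how low counts were treated. With a minimum of 100 counts, 41 genes were higher and 70 lower in the library labelled shUCP2#3, with or without the interval rule, and the standard deviation of the log2 ratios was 0.36. With no minimum, 1242 were higher and 2083 lower, and 707 and 1264 with the interval rule. On the FPKM + 1 scale, which compresses low genes, 21 were higher and 58 lower, the standard deviation was 0.24, and the median of the fibroblast and matrix list was -0.55. With at least 50 counts required in the other library, 23 genes were near 0 in the library labelled shUCP2#3 and 0 in that labelled shUCP2#2. At 1.5-fold from the control, genes departing in both libraries numbered 92 among the higher and 194 among the lower genes, and those departing in neither numbered 5 and 1; with the counting interval off 1 (chosen after seeing the data), those departing in both numbered 12 and 36. Scaling with edgeR or DESeq2 factors or without mitochondrial and structured RNAs turned the sign of 3 values, none above 0.0062 in size. These were the list medians of the integrated stress response and the tricarboxylic acid cycle, and the UCP2 log2 ratio. The median log2 ratio of all genes turned as well, from 0.012 to -0.0026 with edgeR factors. The other values stayed within the limits set for them. No paired analysis was possible because each group holds 1 library. Depth limits genes with 20 to 49 counts in the sum most, where the interval left out 1 for 218 of 276 higher and 376 of 442 lower genes. Hairpin, culture and library cannot be told apart at any depth.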
